A study of Homo sapiens with 21 samples.

Results

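Cells of the HCT-116 line, a human colorectal carcinoma line with an epithelial-like shape, were given extracellular vesicles (EVs) at 1.2 mg/mL from serum labelled HCC-, and their poly(A) RNA was compared with that of cells of the same line that received none, the blank. Each group held 3 libraries, so that 6 of the 21 libraries of the series enter the comparison, and it is described across all 19556 genes that could be tested. EVs are membrane-bound particles that cells release. They came from the serum of patients with hepatocellular carcinoma (HCC) or of healthy people and had been isolated with the GlyExo-Capture method. The label HCC- is not spelled out further, nor is the number of serum donors or the length of the exposure given in the sources used here. Both groups grew in medium with exosome-depleted serum. The other groups of the series received HCC- EVs at 0.24 or 0.048 mg/mL, or HCC+ EVs at 1.2, 0.24 or 0.048 mg/mL. They help to estimate the spread, and 2 of them, HCC- at 0.24 mg/mL and HCC+ at 1.2 mg/mL, serve to test the dose and the source.

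Proliferating cells pass from growth into DNA synthesis when cyclin-dependent kinases release E2F transcription factors from the retinoblastoma (RB) family, and E2F then drives genes of replication, nucleotide supply and repair. Cells that lose water to their surroundings take up or make small organic osmolytes such as betaine, inositol, taurine and sorbitol, under the control of the transcription factor NFAT5. Both programmes are known in colon epithelium, whose cells divide fast and face changing salt concentrations.

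The HCC- libraries at 1.2 mg/mL held 54948399, 44037433 and 52451876 counts and the blank libraries 31219343, 42958433 and 41044709. Levels are given as CPM, a count unit corrected for depth with TMM factors, for replicates 1, 2 and 3 in turn. A change is the log2 fold change ± standard error of HCC- EVs at 1.2 mg/mL over the blank from edgeR's quasi-likelihood test, and the words rise and fall are kept for genes whose Benjamini-Hochberg adjusted p was under 0.05. Nothing in the labels says that the 3 libraries of a group were separate cultures, so the p-values measure the spread between these libraries, which may be technical. Defining genes of the labelled epithelial cell type were abundant in both groups. Keratin 8, KRT8, stood at 1771, 1963 and 1891 CPM with HCC- EVs and 2168, 2574 and 2043 CPM in the blank, and EPCAM, a surface marker of epithelium, at 266, 213 and 249 CPM with HCC- EVs and 314, 289 and 299.8 CPM in the blank. Both fell, and the falls turned to 0.0137 for KRT8 by library totals and to 0.0636 for EPCAM without trends of GC content and length. Of 12 colon epithelial markers 10 were tested, 3 rose and 4 fell (5 and 2 by library totals). CEACAM5 and LGALS4, markers of mature colon cells, were close to absent, with 7 and 21 counts over the HCC- libraries and 0 and 4 over the blank libraries. In bulk RNA, fewer cells of a type and less RNA per cell cannot be told apart.

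A majority of the tested genes differed between the groups. Of 19556 tested genes 10418 were called (53.3%), of which 4844 rose (24.8%) and 5574 fell (28.5%). Rises were fewer but more often large. A change of at least 1 on the log2 scale was reached by 1965 of the genes that rose (10% of those tested) and by 866 of those that fell (4.43%), and a change over 2 by 745 and 63. The median over all tested genes was 0.05. In 11017 genes (56.3%) the 3 values of each group did not overlap. The split depends on the scaling. With library totals as the scale the median moved by 0.281, and there were 8128 rises and 3097 falls. With trends of GC content and length taken out of every library the median moved by 0.193, and there were 7395 rises and 4023 falls. Medians of gene lists below are therefore to be read against 0.05 for all genes. Where a list's median is given, a change of its sign under either scaling is named with it. Medians of some lists for which none is given changed sign as well. Their counts of rises and falls are likewise to be read beside the 24.8% and 28.5% of all tested genes.

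The share of genes that rose or fell differed with their level. Of the 616 genes with a mean over 8 log2 CPM over all 21 libraries, 6.01% rose and 83.1% fell, with a median of -0.47, and among 2893 genes at 6 to 8 log2 CPM, 17.2% rose and 59.7% fell. Among 2348 genes at 0 to 2 log2 CPM, 37.2% rose and 11.1% fell. Falls in lists of abundant genes below are to be read beside these shares. Below 0 log2 CPM, where 1310 of 5972 genes rose and 162 fell, a gene nearly silent in the blank passed the filter on low counts only through a group where it was higher, so that the filter itself favours rises there. At an equal depth of 31219343 counts, 27024, 27078 and 27002 genes had at least 1 count with HCC- EVs, against 22732, 23083 and 23673 in the blank. Protein-coding genes made up 16010, 16008 and 16047 of them with HCC- EVs and 14813, 14919 and 14937 in the blank, and the rest were other gene types. No library of one group reached the range of the other, although 3 libraries against 3 cannot give an exact 2-sided permutation p below 0.1. Long noncoding RNAs took 0.899%, 0.890% and 0.915% of counts with HCC- EVs, against 0.595%, 0.577% and 0.645% in the blank. Of 1231 lincRNA genes tested 323 rose and 76 fell, with a median of 0.52, while of 14344 protein-coding genes 3703 rose and 5247 fell, with a median of -0.05. GC content moved with the change as well. The fifth of genes with the lowest GC content had a median of -0.23 and the fifth with the highest 0.28.

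**Figure D1:**
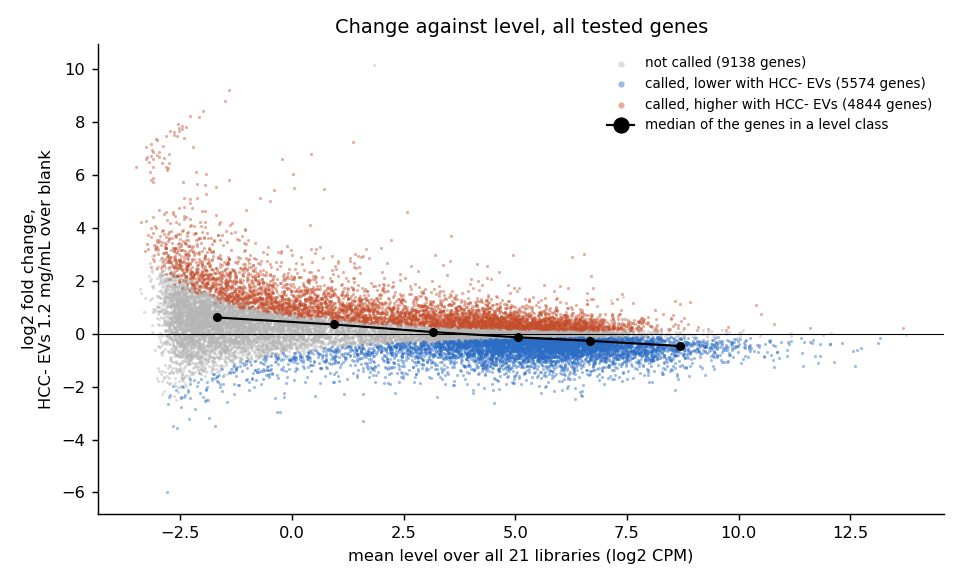
Log2 fold change of HCC- EVs at 1.2 mg/mL over the blank (vertical axis) against the mean log2 CPM over all 21 libraries (horizontal axis) for each tested gene, coloured by call. The black line joins the medians of 6 level classes and runs downward, ending at -0.47 for the 616 genes over 8 log2 CPM.

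Genes of DNA replication fell without exception among the tested members of the lists for origins and forks. All 22 tested genes of origin licensing and helicase loading fell, with a median of -1.38, and so did all 29 genes of the replication fork, with a median of -1.30. The helicase subunit MCM6 stood at 128, 124 and 116 CPM with HCC- EVs, against 333, 315 and 325 CPM in the blank (log2 change -1.40 ± 0.06, adjusted p = 3.97e-18). GINS2, a subunit of the same helicase's activating complex, stood at 19.3, 21.9 and 20.2 CPM with HCC- EVs, against 89.7, 81.9 and 81.002 CPM in the blank (log2 change -2.04 ± 0.07, adjusted p = 1.90e-19). In both genes each HCC- library lay far below each blank library. At the fork, the clamp loader subunit RFC5 had 27.9, 21.7 and 19.7 CPM with HCC- EVs and 122, 113 and 107 CPM in the blank (-2.30 ± 0.10), and the primase subunit PRIM1 4.65, 4.37 and 4.64 CPM with HCC- EVs and 22.6, 20.8 and 21.6 CPM in the blank (-2.25 ± 0.11). WDHD1, which links helicase and polymerase, changed by -2.17 ± 0.10, the polymerase alpha catalytic subunit POLA1 by -1.70 ± 0.08 and the flap nuclease FEN1 by -1.22 ± 0.05. The smallest fall in these lists was -0.24. No gene of either list rose.

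Enzymes that supply nucleotides fell in 22 of 23 tested cases and rose in 0, with a median of -0.94. DUT, which clears dUTP, had 20.8, 18.5 and 17.1 CPM with HCC- EVs and 85.9, 77.3 and 84.6 CPM in the blank (log2 change -2.13 ± 0.08, adjusted p = 2.46e-19). The ribonucleotide reductase subunit RRM1 changed by -1.69 ± 0.07, the phosphoribosyl pyrophosphate synthetase PRPS2 by -1.52 ± 0.07 and thymidylate synthase, TYMS, by -1.41 ± 0.07.

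The regulators above these genes moved with them. In the E2F and RB list 15 of 18 genes fell and 1 rose, with a median of -0.59. The rise was that of TFDP2, a partner of E2F, at 0.26 ± 0.07, and like the other exceptions below, and FOSL1, CD9, CD82 and TSPAN1, it was picked out after its value was seen. E2F1 had 17.4, 19.9 and 16.2 CPM with HCC- EVs and 37.4, 46.4 and 40.9 CPM in the blank (log2 change -1.23 ± 0.09, adjusted p = 1.03e-12). E2F2 changed by -1.56 ± 0.08, E2F8, a repressor that E2F1 induces, by -1.88 ± 0.09, the RB relative RBL1 by -1.54 ± 0.11 and MYBL2, which carries the programme on to mitosis, by -1.78 ± 0.08. Among 16 cyclins, kinases and inhibitors of the G1 phase 10 fell and 3 rose. CCNE2, the cyclin that pairs with CDK2 at the start of S phase, had 3.56, 4.602 and 3.23 CPM with HCC- EVs and 15.2, 12.1 and 14.7 CPM in the blank (-1.89 ± 0.13). CDK2, CDK4 and the phosphatase CDC25A changed by -1.11 ± 0.07, -1.08 ± 0.06 and -1.42 ± 0.08, CCND1 fell by 0.50, and CDK6 gave 0.12 ± 0.09 (adjusted p = 0.285). The 3 rises were inhibitors, CDKN1A (p21) at 0.39 ± 0.06, CDKN1C (p57) at 0.88 ± 0.14 and CDKN2B (p15) at 1.25 ± 0.12. By library totals 5 genes of the list rose. CDKN1B (p27) gave 0.15 ± 0.08 (adjusted p = 0.106), and CDKN2A and CDKN2C, further inhibitors, changed by -0.36 ± 0.07 and -0.87 ± 0.12.

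Words that E2F is known to bind were found in a larger share of promoters of genes with large falls than of other genes, given here as a description. The words searched, on both strands, were TTTGGCGC, TTTCCCGC, TTTGCCGC and TTTCGCGC, within the 250 bases before and 50 after each gene's start in RefSeq on GRCh38.p14. Of 12607 tested genes with such a window 5.12% held at least 1 word, and of all 27305 windows known, tested or not, the share was 3.33%. The share was 12.5% of 594 genes that fell by at least 1 on the log2 scale and 6.16% of 3849 with smaller falls. It was 4.32% of 4997 genes without a call, 4.10% of 2144 with rises under 1 and 2.93% of 1023 with rises of at least 1. Among the lists, 10 of 19 windows of the origin list, 10 of 26 of the fork list, 6 of 15 of the E2F and RB list and 3 of 32 of the mitosis list held a word. The shorter word CCAAT, which occurs in 36.1% of tested windows, stood in 21 of the 32 mitosis windows. A matching word is a description of the sequence, not a measured binding site. The windows of GINS2 (chr16:85688905-85689204), MCM6 (chr2:135876394-135876693) and E2F1 (chr20:33686336-33686635), all on the minus strand, are shown because they hold 1, 4 and 2 words in genes that fell. The words are in capitals, and in MCM6 they overlap in pairs.
GINS2: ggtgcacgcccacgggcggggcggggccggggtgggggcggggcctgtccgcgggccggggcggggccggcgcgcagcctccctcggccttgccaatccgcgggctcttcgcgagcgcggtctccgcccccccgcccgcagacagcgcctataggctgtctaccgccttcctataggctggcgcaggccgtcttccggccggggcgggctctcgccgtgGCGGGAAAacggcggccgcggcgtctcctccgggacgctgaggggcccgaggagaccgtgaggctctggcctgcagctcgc
MCM6: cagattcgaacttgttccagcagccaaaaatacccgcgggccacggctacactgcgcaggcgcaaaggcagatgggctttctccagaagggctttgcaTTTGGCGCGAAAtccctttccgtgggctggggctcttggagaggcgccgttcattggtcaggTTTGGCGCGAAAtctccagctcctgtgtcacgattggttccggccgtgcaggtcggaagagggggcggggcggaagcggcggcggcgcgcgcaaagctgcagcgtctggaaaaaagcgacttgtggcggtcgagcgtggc
E2F1: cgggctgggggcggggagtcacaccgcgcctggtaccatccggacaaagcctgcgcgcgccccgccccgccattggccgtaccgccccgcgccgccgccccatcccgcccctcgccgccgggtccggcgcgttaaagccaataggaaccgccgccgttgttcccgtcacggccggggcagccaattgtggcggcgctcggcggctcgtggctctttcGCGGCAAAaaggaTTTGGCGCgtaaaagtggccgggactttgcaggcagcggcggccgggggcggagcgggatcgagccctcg

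**Figure D2:**
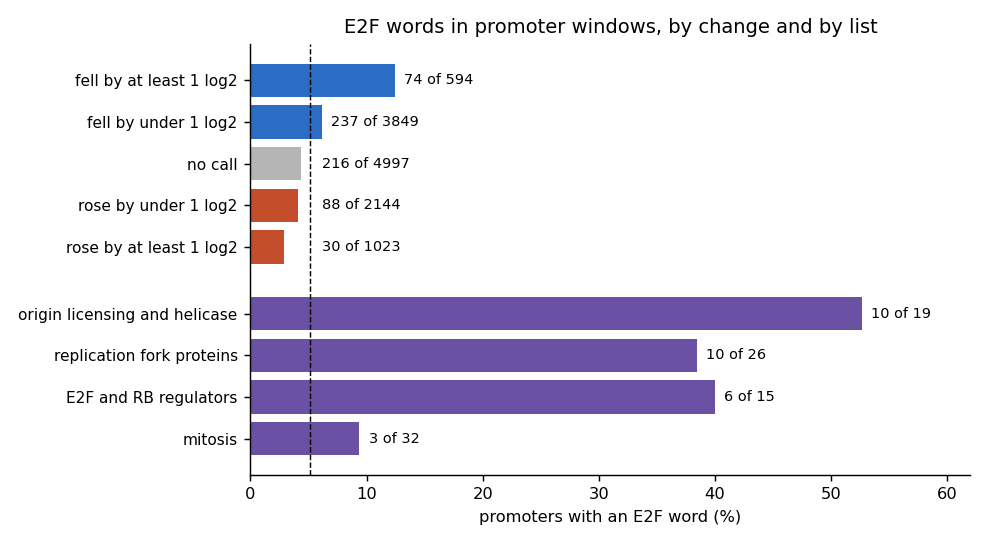
Share of promoter windows with at least 1 E2F word (horizontal axis, percent) for genes grouped by their change, with HCC- EVs at 1.2 mg/mL over the blank, and for 4 gene lists; the counts stand beside the bars and the dashed line is the share of all tested windows, 5.12%. The share is 12.5% where genes fell by at least 1 on the log2 scale and 2.93% where they rose by as much.

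Genes of mitosis fell in 36 of 37 tested cases, with a median of -1.03, and 1 rose, the phosphatase CDC25B at 0.28 ± 0.06. The condensin subunit NCAPH had 48.3, 47.3 and 42.2 CPM with HCC- EVs and 146, 140.5 and 134 CPM in the blank (log2 change -1.61 ± 0.07, adjusted p = 1.51e-17). NCAPG, another condensin subunit, changed by -1.70 ± 0.09 and the proliferation marker MKI67 by -0.996 ± 0.06. All 24 genes of homologous recombination and crosslink repair fell, with a median of -1.29. The nuclease EXO1 had 12.8, 14.6 and 10.3 CPM with HCC- EVs and 62.1, 55.2 and 61.2 CPM in the blank (-2.24 ± 0.10), and the helicase BRIP1, FANCD2 of the Fanconi pathway and the mismatch repair protein MSH6 changed by -1.76 ± 0.09, -1.37 ± 0.07 and -1.21 ± 0.07.

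Histone and chromatin genes parted by list. In the list of replication-independent histone variants, which also holds high mobility group proteins, 14 of 17 genes fell and 2 rose, with a median of -0.82. Among the falls were the variant H2AZ1 at -1.22 ± 0.06 and the high mobility group proteins HMGB2 and HMGN2 at -1.36 ± 0.08 and -1.58 ± 0.08. The rises were those of the linker histone H1-10 (0.48 ± 0.10) and of H2AJ (0.55 ± 0.10). Of 38 tested genes in the list of replication-coupled histones 19 rose, each by at least 1, and 3 fell, with a median of 1.60. The falls included those of H2AC14 (-2.44 ± 0.42) and H2AC20 (-1.42 ± 0.40). The summed level of the tested members overlapped between the groups, at 913 to 1074 CPM with HCC- EVs and 972 to 1135 CPM in the blank, so the count of rises does not describe the total. H2BC5 had 40.9, 38.3 and 52.2 CPM with HCC- EVs and 3.45, 3.62 and 3.22 CPM in the blank (log2 change 3.67 ± 0.17, adjusted p = 1.85e-17). H1-2, a linker histone, had 48.3, 50.04 and 61.8 CPM with HCC- EVs and 9.51, 8.42 and 8.14 CPM in the blank (2.62 ± 0.13). H2AC6, H2BC21 and H2BC12 changed by 2.75 ± 0.17, 3.02 ± 0.24 and 1.99 ± 0.14. Most transcripts of such genes end in a stem loop without a poly(A) tail, and these libraries were made from poly(A) RNA, so the values count the tailed part alone. Members of this family are alike in sequence, and reads can be split between them. Chromatin repressors of the DNA methylation list fell in 14 of 22 cases and rose in 5, with 8 rises by library totals. UHRF1, which brings DNA methyltransferase to new DNA, changed by -1.36 ± 0.07, the remodeller HELLS by -1.36 ± 0.08, DNMT1 by -0.77 ± 0.06 and the lamin LMNB1 by -1.33 ± 0.07. The rises were those of the enzymes that oxidise methylcytosine, TET1 (0.38 ± 0.16), TET2 (0.34 ± 0.09) and TET3 (0.53 ± 0.09), and of the Polycomb proteins EZH1 (0.68 ± 0.08) and JARID2 (0.58 ± 0.08). Single libraries decided some of these calls. H2AC20 was at -0.99 and uncalled without blank replicate 3 and at -2.08 without HCC- replicate 2, TET2 was at 0.21 and uncalled without blank replicate 2, and TET1 kept its call only without blank replicate 1, its other values lying at 0.25 to 0.40.

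**Figure D3:**
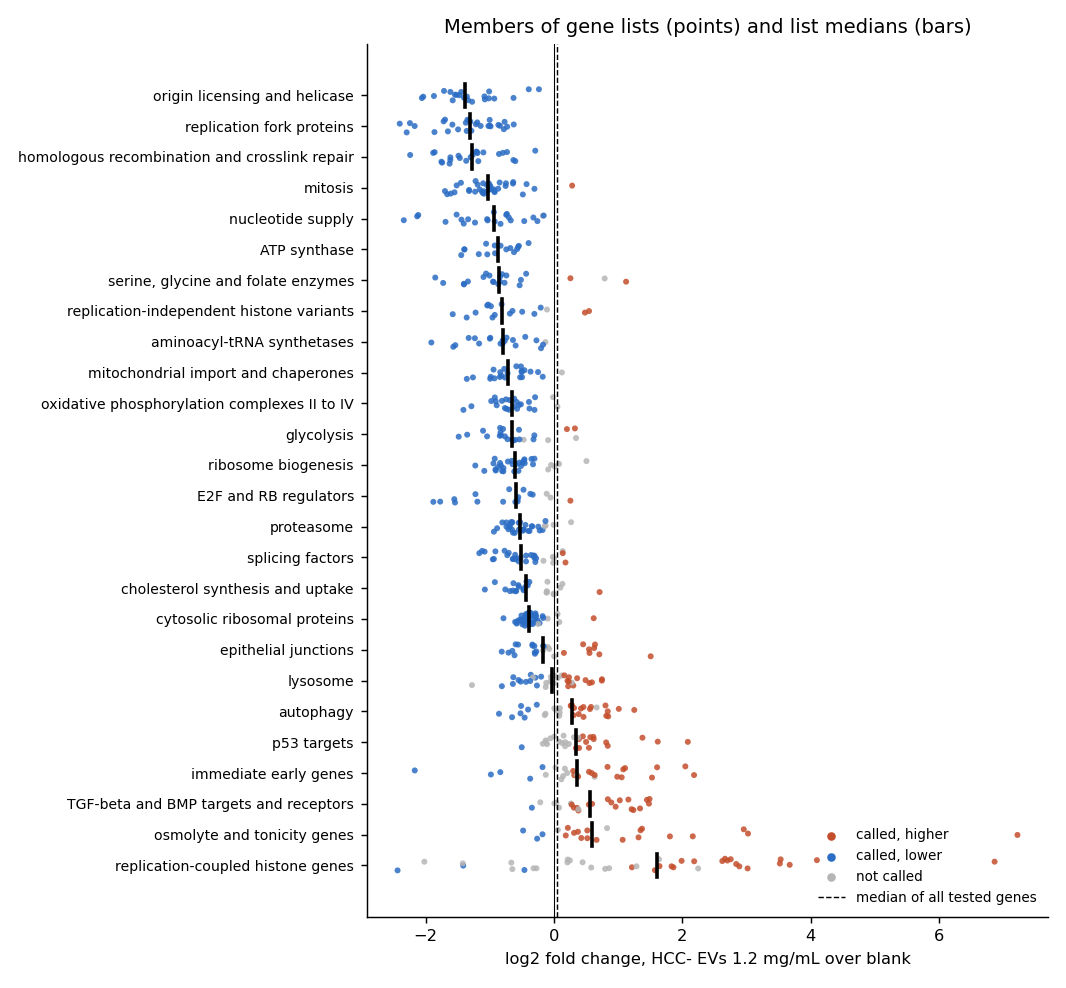
Log2 fold change of HCC- EVs at 1.2 mg/mL over the blank (horizontal axis) for the tested members of 26 gene lists (points, coloured by call), with each list's median as a black bar and the median of all tested genes, 0.05, as a dashed line. Lists of replication sit lowest, with medians of -1.38 and -1.30, and replication-coupled histones highest at 1.60.

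Most nuclear genes of the mitochondrial lists fell. All 16 genes of ATP synthase did so, with a median of -0.88, the largest fall being that of the ring subunit ATP5MC1 (-1.45 ± 0.09) and the smallest that of the inhibitor ATP5IF1 (-0.40 ± 0.06). ATP5PD, of the stalk that holds the enzyme still, had 38.9, 39.7 and 34.4 CPM with HCC- EVs and 106, 97.5 and 94.3 CPM in the blank (log2 change -1.40 ± 0.08, adjusted p = 1.73e-15). Falls were found for 19 of 23 genes of complex I (median -0.50) and 22 of 24 of complexes II to IV (median -0.66), with 0 rises in both. NDUFB3 of complex I changed by -1.40 ± 0.10 and COX8A of complex IV by -1.41 ± 0.09. Under scaling to library totals the falls in complex I numbered 10 and the rises 4. Import factors and chaperones fell in 22 of 23 cases, as TOMM20, a receptor on the outer membrane, at -0.93 ± 0.07, and mitochondrial ribosomal proteins in 24 of 25, as MRPL24 at -1.48 ± 0.07. Of 13 messengers encoded in the mitochondrial genome 9 fell and 0 rose, with a median of -0.27 that was 0.01 by library totals and 0.15 without GC content and length trends. By library totals 3 of them fell and 2 rose, and without those trends 0 fell and 5 rose. The rRNA MT-RNR1 had 1445, 1823 and 1639 CPM with HCC- EVs and 4169.8, 3638 and 3715 CPM in the blank (-1.23 ± 0.16).

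Genes of central carbon metabolism fell as well. In the list of the citric acid cycle 21 of 24 genes fell and 2 rose, with a median of -0.61. The rises were those of PC, pyruvate carboxylase, at 1.01 ± 0.10 and OGDH at 0.34 ± 0.07. PCK2, which makes phosphoenolpyruvate in mitochondria, had 21.8, 25.2 and 23.8 CPM with HCC- EVs and 106, 119 and 99.8 CPM in the blank (log2 change -2.20 ± 0.09, adjusted p = 2.69e-18). Fumarase, FH, changed by -1.55 ± 0.07 and SUCLG2, a subunit of succinyl-CoA synthetase, by -1.54 ± 0.08. Of 23 glycolytic genes 18 fell and 2 rose, with a median of -0.65. GAPDH had 1699, 1851 and 1769 CPM with HCC- EVs and 3659.9, 4399.6 and 3397 CPM in the blank (-1.11 ± 0.08), and ENO1 and TPI1 changed by -0.85 ± 0.08 and -0.84 ± 0.07. PKM and PFKFB3, which makes an activator of glycolysis, rose by 0.20 and 0.33. The call of PKM was lost without HCC- replicate 3, blank replicate 1 or blank replicate 3, at 0.17, 0.15 and 0.15. GAPDH has many processed copies in the genome. Fatty acid oxidation fell in 13 of 18 cases and rose in 3 (5 by library totals). CPT2, which passes fatty acids to coenzyme A inside mitochondria, changed by -1.23 ± 0.10 and HADH by -1.18 ± 0.07. The rises were those of PDK4, which holds back pyruvate dehydrogenase (1.15 ± 0.18), SLC25A20 (0.34 ± 0.09) and the receptor PPARA (0.34 ± 0.10), which was at 0.22 and uncalled without blank replicate 2.

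Genes of protein synthesis fell, most of all those that charge tRNA. Of 20 aminoacyl-tRNA synthetases 19 fell and 0 rose, with a median of -0.80. IARS1, which charges isoleucine tRNA, had 263, 277 and 230.2 CPM with HCC- EVs and 791, 724 and 772 CPM in the blank (log2 change -1.57 ± 0.06, adjusted p = 1.35e-18). FARSB, YARS1 and WARS1 changed by -1.91 ± 0.08, -1.54 ± 0.06 and -1.33 ± 0.06. The word TGATGCAA, to which ATF4 binds as a partner of C/EBP proteins, stood in 6 of 16 windows of these genes, against 0.4997% of all tested windows. Among the 594 genes that fell by at least 1 on the log2 scale the share was 0.337%. The word is shown in capitals, as its reverse complement, in the window of IARS1 (chr9:92293648-92293947, minus strand).
IARS1: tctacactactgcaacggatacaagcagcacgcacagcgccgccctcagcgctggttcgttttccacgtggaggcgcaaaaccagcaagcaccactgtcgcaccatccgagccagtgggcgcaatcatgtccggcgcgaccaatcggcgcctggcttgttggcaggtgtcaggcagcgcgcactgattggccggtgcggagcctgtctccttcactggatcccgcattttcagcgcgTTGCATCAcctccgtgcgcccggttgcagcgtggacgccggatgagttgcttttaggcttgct

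Amino acid metabolism was divided. Enzymes of serine, glycine and folate fell in 19 of 22 cases and rose in 2, with a median of -0.86. MTHFD1, which interconverts folates, changed by -1.40 ± 0.07, and the rises included that of CTH (0.26 ± 0.10). CTH kept its call only without HCC- replicate 2, its other values lying at 0.23 to 0.28. The transporters SLC1A4 and SLC7A1 changed by -1.32 ± 0.09 and -0.99 ± 0.07, while SLC38A2 and SLC7A8 rose. SLC38A2, which carries small neutral amino acids, had 2489, 1970.3 and 2594 CPM with HCC- EVs and 1331, 957 and 1072 CPM in the blank (1.07 ± 0.12), and SLC7A8 had 31.4, 31.4 and 36.3 CPM with HCC- EVs and 9.07, 10.1 and 10.3 CPM in the blank (1.74 ± 0.11). In all 11 of 21 amino acid transporters fell and 6 rose. The integrated stress response list had 9 falls and 3 rises of 19, and its median of -0.16 became 0.12 by library totals, with 5 falls and 6 rises. TRIB3 and CEBPG changed by -1.10 ± 0.10 and -1.09 ± 0.08. The rises were those of ATF3 (0.83 ± 0.08), the phosphatase subunit PPP1R15A (0.65 ± 0.08) and the secreted factor GDF15 (0.56 ± 0.12).

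Ribosome biogenesis fell in 27 of 32 cases and rose in 0 (5 by library totals), with the helicase DDX21 at -1.23 ± 0.07. Cytosolic ribosomal proteins changed less, with 43 of 49 falling, 1 rising and a median of -0.39. Of all 616 genes over 8 log2 CPM 83.1% fell, with a median of -0.47, so falls were common at high levels in general. By library totals 21 of them fell and 4 rose, and without GC content and length trends 26 fell and 8 rose. RPL15 had 899, 887 and 958 CPM with HCC- EVs and 1344, 1318 and 1241 CPM in the blank (-0.51 ± 0.05), and the rise was that of RPS27L, a p53 target, at 0.62 ± 0.10. Translation factors fell in 21 of 27 cases and rose in 1 (5 by library totals), the elongation factor EEF1A1 at 0.21 ± 0.05, with falls such as EIF1AX (-1.16 ± 0.09) and EIF2S2 (-0.97 ± 0.06). Splicing factors fell in 24 of 31 cases, as HNRNPK (-1.12 ± 0.06) and SRSF2 (-1.08 ± 0.09), and rose in 2 (6 by library totals), CLK3 at 0.18 ± 0.07 and HNRNPH1 at 0.14 ± 0.05. The call of CLK3 was lost without HCC- replicate 2 or 3, or blank replicate 1 or 3 (0.14 to 0.17), and that of HNRNPH1 without HCC- replicate 1 (0.11) or blank replicate 2 (0.07). Cytosolic heat shock proteins and the chaperonin TRiC fell in 20 of 24 cases and rose in 2, HSF1, the transcription factor of heat shock (0.28 ± 0.08), and HSPH1 (0.18 ± 0.06), which was uncalled without HCC- replicate 3 (0.16) or blank replicate 2 (0.12). HSP90AA1 had 2758, 2613 and 2299 CPM with HCC- EVs and 5707, 4901 and 5395 CPM in the blank (-1.06 ± 0.07), and HSPA8 had 2165, 2281 and 2149 CPM with HCC- EVs and 4149.5, 3931 and 3865 CPM in the blank (-0.86 ± 0.05). The endoplasmic reticulum chaperone HSP90B1 changed by -1.05 ± 0.07, with 13 falls and 3 rises among 20 genes of its list, or 8 and 7 by library totals. Proteasome subunits fell in 29 of 33 cases and rose in 0 (3 by library totals), with PSMB1 at -0.94 ± 0.06.

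Lipid genes fell on the synthetic side, while the sterol exporters ABCA1 and ABCG1 rose. Cholesterol synthesis and uptake fell in 16 of 25 cases and rose in 1, the reductase TM7SF2 at 0.71 ± 0.09, while by library totals 6 rose. HSD17B7, an enzyme of cholesterol synthesis, had 16.5, 14.1 and 12.5 CPM with HCC- EVs and 29.3, 29.8 and 31.8 CPM in the blank (-1.08 ± 0.11). Fatty acid synthesis fell in 10 of 16 cases and rose in 0, with ELOVL5 at -0.79 ± 0.08, while FASN gave 0.03 ± 0.09 (adjusted p = 0.793), or -0.18 and called without GC content and length trends. By library totals 6 of these fell and 5 rose. In the list of the sterol sensor LXR and its targets 5 of 8 genes rose and 0 fell. Of the 5, NR1H2 and NR1H3 encode the sensor itself, and the targets that rose were ABCA1, ABCG1 and APOE. MYLIP, LPCAT3 and SMPDL3A, further targets, gave no call. The cholesterol exporter ABCA1 had 4.29, 2.67 and 3.61 CPM with HCC- EVs and 0.440, 0.738 and 1.17 CPM in the blank (2.14 ± 0.34), ABCG1 had 6.06, 6.79 and 6.76 CPM with HCC- EVs and 1.69, 1.97 and 1.92 CPM in the blank (1.80 ± 0.22), and APOE changed by 1.81 ± 0.30.

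Osmolyte and tonicity genes rose in 17 of 22 cases and fell in 3, with a median of 0.59, and SLC6A12 had the largest rise of the called genes with a mean level of at least 1 log2 CPM. This gene, which takes up betaine and GABA, had 8.62, 10.1 and 22.96 CPM with HCC- EVs, against 0, 0.172 and 0.0749 CPM in the blank (log2 change 7.23 ± 0.81, adjusted p = 9.39e-07). SLC5A3, the sodium-inositol transporter, had 347, 251 and 376 CPM with HCC- EVs, against 47.8, 31.5 and 40.9 CPM in the blank (log2 change 3.02 ± 0.22, adjusted p = 9.11e-09). AKR1B1, aldose reductase, which makes sorbitol, had 233, 248 and 395 CPM with HCC- EVs, against 66.6, 67.6 and 61.4 CPM in the blank (log2 change 2.16 ± 0.16, adjusted p = 1.60e-09). No HCC- library overlapped the blank in these genes, and replicate 3 was the highest HCC- library in each. The taurine transporter SLC6A6 had 171, 184 and 196 CPM with HCC- EVs and 76.1, 76.5 and 68.8 CPM in the blank (1.32 ± 0.09), and the water and glycerol channel AQP3 had 80.4, 85.8 and 128 CPM with HCC- EVs and 14.9, 13.8 and 9.41 CPM in the blank (2.96 ± 0.22). The kinase SGK1, which acts on ion transport, and TSC22D3 and TSC22D4, of a family tied to cell volume, changed by 1.81 ± 0.16, 1.35 ± 0.12 and 1.37 ± 0.10. The falls were those of HSPA4L (-0.48 ± 0.10), OXSR1 (-0.26 ± 0.07) and HSPA1B (-0.18 ± 0.07), and by library totals none of them was called, OXSR1 and HSPA1B turning to 0.0182 and 0.10. HSPA1B was also uncalled without HCC- replicate 1 or 2 (both -0.13) or blank replicate 2 (-0.09). NFAT5 itself, named here after its value was seen, changed by 0.22 ± 0.09, and its call was lost without HCC- replicate 1, HCC- replicate 3 or blank replicate 2, at 0.15, 0.18 and 0.12. The blank libraries of SLC6A12 held 0, 7 and 3 counts, and its change was 8.24 without blank replicate 2. The gene passed the filter on low counts, and reached a mean of 1 log2 CPM, only through groups where it was higher.

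**Figure D4:**
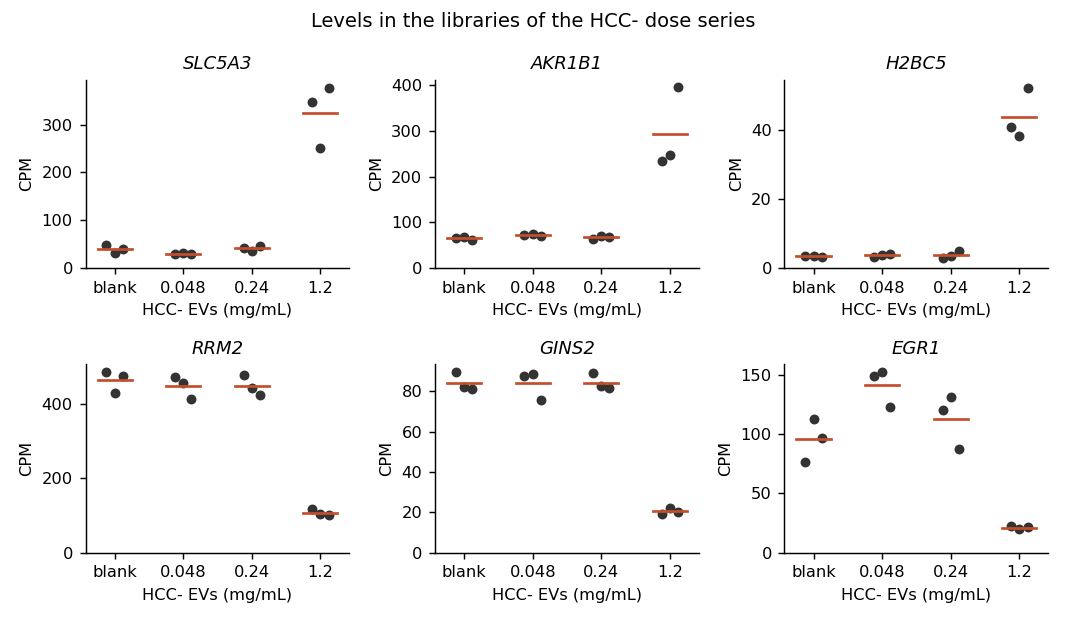
CPM (vertical axis, from 0) of 6 genes in each library (points) of the blank and of cells given HCC- EVs at 0.048, 0.24 and 1.2 mg/mL (horizontal axis), with group means as bars. The 6 genes were selected among called ones. The 1.2 mg/mL libraries stand apart from the lower doses and the blank in all 6 genes, as SLC5A3 at 347, 251 and 376 CPM.

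Stress and growth-arrest genes rose in part. Of 29 p53 targets 14 rose and 1 fell, the death receptor FAS at -0.50 ± 0.12, with a median of 0.34. By library totals 24 rose, and without GC content and length trends 23 did. TP53INP1 and BBC3 (PUMA), which favours cell death, rose by 1.62 and 1.38, BAX by 0.50 and PPM1D by 0.61. In the BCL2 family the BH3-only gene BMF had 9.68, 7.72 and 11.1 CPM with HCC- EVs and 1.56, 0.665 and 1.52 CPM in the blank (log2 change 2.95 ± 0.30, adjusted p = 1.38e-09). BCL2L11 (BIM), another BH3-only gene, rose by 0.73, whereas BCL2, which opposes cell death, fell by 0.71. In all 6 of 16 members rose and 6 fell, or 2 by library totals. MXD4, which competes with MYC for its partner MAX, had 109, 109 and 106 CPM with HCC- EVs and 28.6, 33.1 and 28.6 CPM in the blank (1.84 ± 0.11), and MXD1 changed by 1.05 ± 0.14. MXD3 fell, with a change of -0.52. In the list of the MYC network and glucose sensing 3 of 14 genes rose and 5 fell, with a median of -0.16. By library totals that median was 0.12, with 6 rises and 1 fall. MYC itself gave -0.18 ± 0.06, a fall that turned to 0.10 by library totals and was uncalled without HCC- replicate 1 (-0.14) or blank replicate 2 (-0.11).

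Immediate early genes rose in 15 of 28 cases and fell in 5, and the fall of EGR1 set it apart from the rises of others. EGR1 had 22.4, 19.6 and 21.5 CPM with HCC- EVs and 76.7, 113 and 96.9 CPM in the blank (log2 change -2.17 ± 0.22, adjusted p = 4.14e-07). FOSB, a part of the AP-1 factor, had 13.1, 12.4 and 16.5 CPM with HCC- EVs and 2.57, 3.54 and 3.97 CPM in the blank (2.05 ± 0.16). The nuclear receptor NR4A2 and IER5 rose by 1.53 and 1.08, and KLF10 and the AP-1 member FOSL1 changed by -0.84 ± 0.08 and -0.98 ± 0.11. By library totals 3 of the list fell. Of 24 targets and receptors of TGF-beta and BMP 17 rose and 1 fell, the differentiation inhibitor ID2 at -0.35 ± 0.07, with a median of 0.57. BMP4 had 372, 392 and 453 CPM with HCC- EVs and 227, 228 and 200.1 CPM in the blank (0.89 ± 0.09), the receptor TGFBR2 rose by 0.84, and BAMBI, SKIL and ID3 rose by 1.16, 1.49 and 1.03. Wnt targets rose in 7 of 16 cases and fell in 4 (2 by library totals). NOTUM and RNF43, which restrain Wnt signals at the membrane, rose by 1.56 and 0.70, and the nuclear effector TCF7 fell by 0.88.

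Inflammatory and interferon genes moved in both directions. NF-kB targets and chemokines rose in 8 of 18 cases and fell in 1, the chemokine CXCL16 at -0.30 ± 0.07. The inhibitor NFKBIA stood at 57.9, 56.9 and 80.6 CPM with HCC- EVs and 23.02, 20.2 and 16.7 CPM in the blank (1.71 ± 0.18), and TNFAIP3, another inhibitor, changed by 0.85 ± 0.16. In the interferon list 13 of 27 genes rose and 5 fell (3 by library totals). The summed level of the tested members was lower, at 371 to 379 CPM with HCC- EVs and 417 to 442 CPM in the blank, so the count of rises does not describe the total. IRF7 and ISG20 rose by 1.64 and 1.20, while the RNA sensor OAS3 changed by -0.94 ± 0.07. GBP2, an interferon-induced GTPase, held 204, 152 and 324 counts with HCC- EVs, against 2, 0 and 2 in the blank, a ratio of counts per total of 129 (95% interval 50.3 to 476, counting error only). GBP2 passed the filter on low counts only through groups where it was higher. In the HLA class I list 5 of 16 genes rose and 2 fell, and by library totals 11 rose. The shares over all tested genes were 24.8% and 28.5%. TAPBPL rose by 1.99, and TAP2 and B2M changed by -1.19 ± 0.09 and -0.61 ± 0.07.

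Genes that handle foreign compounds and metals changed in separate ways. CYP1A1, which the aryl hydrocarbon receptor induces, had 23.9, 23.4 and 29.01 CPM with HCC- EVs and 4.43, 4.21 and 3.84 CPM in the blank (log2 change 2.61 ± 0.17, adjusted p = 2.34e-14), and AHRR, a repressor of that receptor, rose by 1.49. In the list of this receptor and its targets 3 of 7 tested genes rose and 1 fell, NQO1, which is also an NRF2 target. The summed level of this list was lower, at 317 to 338 CPM with HCC- EVs and 559 to 621 CPM in the blank. Of 5 CYP4F genes, which lie together on chromosome 19 and oxidise fatty acids, 4 rose, with CYP4F3 at 11.5, 11.02 and 13.5 CPM with HCC- EVs and 1.52, 1.03 and 1.30 CPM in the blank (3.24 ± 0.20). They are alike in sequence. NRF2 targets rose in 8 of 23 cases and fell in 13, with a median of -0.26 that was 0.02 by library totals, with 8 falls. AKR1C3, one of a family of close relatives, rose by 2.94, and NQO1 and TXNRD1 changed by -1.25 ± 0.06 and -0.65 ± 0.05. The metallothioneins MT2A and MT1E, which bind zinc and copper, had changes of -1.57 ± 0.18 and -1.60 ± 0.16, with MT2A at 98.8, 93.5 and 122 CPM with HCC- EVs and 276, 384 and 272 CPM in the blank. Of 19 genes of glucocorticoid and circadian output 6 rose and 5 fell, near the shares of all tested genes (24.8% and 28.5%). By library totals 11 of the 19 rose and 1 fell. In this list FKBP5 fell by 1.19, while TSC22D3, also a glucocorticoid target, changed by 1.35 ± 0.12. Hypoxia targets rose in 1 of 17 cases and fell in 7, among them BNIP3, which fell by 1.39.

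Autophagy genes rose in 17 of 32 cases and fell in 7, with a median of 0.27. ULK1, the kinase that starts the process, had 68.4, 73.8 and 72.8 CPM with HCC- EVs and 28.7, 34.1 and 27.4 CPM in the blank (1.25 ± 0.10). The transcription factor TFE3 and GABARAPL1 rose by 1.01 and 0.84, and ATG3 fell by 0.86. Lysosomal genes were split, with 12 rises and 11 falls of 34, or 21 and 4 by library totals, where the median of -0.03 was 0.26. Genes of vesicle formation and tetraspanins fell in 15 of 27 cases and rose in 5, a median of -0.19 that was 0.10 by library totals, with 6 falls and 10 rises. The rises included the tetraspanins CD9 (0.33 ± 0.06), CD82 (0.53 ± 0.13) and TSPAN1 (0.95 ± 0.17). LRP1, an endocytic receptor, rose by 1.18 and EEA1, which tethers early endosomes, fell by 1.13.

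Epithelial junction genes moved in both directions. They fell in 14 of 26 cases and rose in 8, and their median of -0.17 was 0.11 by library totals, with 6 falls. CLDN4, a claudin of tight junctions, had 282, 290.1 and 406 CPM with HCC- EVs and 109, 131 and 104 CPM in the blank (log2 change 1.51 ± 0.12, adjusted p = 5.11e-10), whereas CLDN7 changed by -0.71 ± 0.08 and the splicing regulator ESRP1 by -0.82 ± 0.07. CDH1, E-cadherin, gave -0.10 ± 0.07 (adjusted p = 0.213), or 0.18 and called by library totals. Of 33 genes of intestinal differentiation 19 were tested, of which 13 rose and 1 fell, with a median of 0.72. The summed level of the tested members differed less, at 213 to 228 CPM with HCC- EVs and 193 to 210 CPM in the blank. CEACAM1, MUC20 and KLF5 rose by 2.19, 1.26 and 0.65, and the carbonic anhydrase CA2 fell by 1.45. Mesenchymal and matrix genes rose in 14 of 31 cases and fell in 4. LAMA3 and LAMB3, chains of the laminin under epithelia, and COL17A1, which anchors to it, rose by 1.18, 1.35 and 2.10. Of 15 integrins 6 rose and 5 fell (3 by library totals), among them ITGB8 at 2.33 ± 0.24 and ITGB1 at -0.97 ± 0.06. Over all tested genes 24.8% rose and 28.5% fell.

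In absolute terms the largest falls were those of ACTG1, MT-RNR2, HSP90AA1, HSP90AB1, MT-CO2 and MT-RNR1. Cytoplasmic actin ACTG1 had 2973, 3071 and 2871 CPM with HCC- EVs and 6626, 7906 and 6469.8 CPM in the blank (-1.24 ± 0.07). The largest rises were those of EEF1A1, SLC38A2, FAT1, RPL13A, POLR2A and SOX4. RPL13A, a protein of the large ribosomal subunit, changed by 0.38 ± 0.05. POLR2A, the catalytic subunit of RNA polymerase II, had 807, 833 and 845 CPM with HCC- EVs and 327, 406 and 359 CPM in the blank (1.19 ± 0.07), and the transcription factor SOX4 had 724, 635 and 825 CPM with HCC- EVs and 328, 302 and 290.0 CPM in the blank (1.25 ± 0.09). ACTG1, EEF1A1 and RPL13A have processed copies elsewhere in the genome. By fold, ANK1, MAGEB17, DNAH10 and H3C6 rose by 4.60, 3.21, 2.97 and 3.53 beside the osmolyte genes. RIBC2, CDCA7, PCLAF and CASC2 changed by -3.29 ± 0.24, -2.46 ± 0.10, -2.41 ± 0.16 and -2.28 ± 0.27 beside the replication genes.

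**Figure D5:**
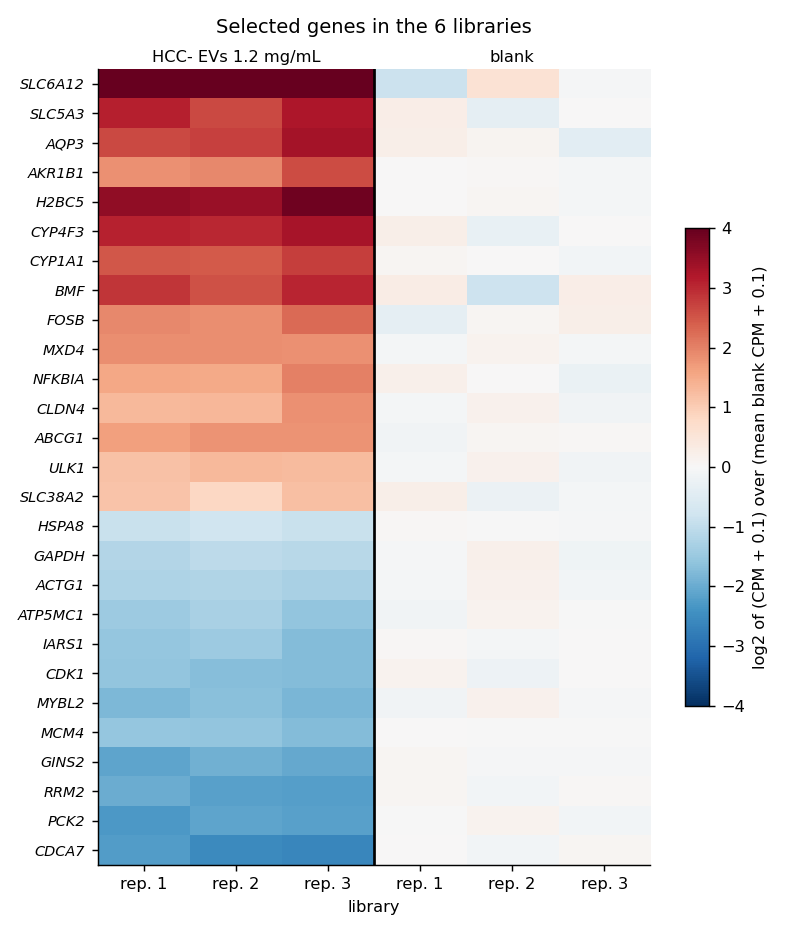
Log2 of CPM plus 0.1 over the mean blank CPM plus 0.1 (colour, limited at 4) for 27 genes (rows) in the HCC- EVs 1.2 mg/mL libraries (left) and the blank libraries (right). The genes were selected among called ones, and 56.3% of all tested genes had no overlap between the groups. In each gene shown the 3 HCC- libraries lie on one side of the 3 blank libraries, as ACTG1 at 2973, 3071 and 2871 CPM with HCC- EVs.

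Markers of other cell types were measured in the same libraries. CD14, LYZ, PECAM1, TEK and SLC4A1 had few or no counts in the blank. They passed the filter on low counts only through groups where they were higher. The filter itself favours rises among such genes, so their values are given as a description. Of 14 leukocyte markers 7 were tested and 4 rose, and the list summed to 8.79, 10.9 and 12.2 CPM of library totals with HCC- EVs, against 2.11, 2.82 and 3.09 in the blank. CD3E, S100A8, S100A9 and FCGR3A had 0 counts in all 6 libraries, and PTPRC had 8 counts with HCC- EVs and 6 in the blank. CD14, HLA-DRA and ITGAM rose by 3.43, 1.56 and 1.61, and LYZ had 126 counts with HCC- EVs and 2 in the blank, a ratio of counts per total of 47.9 (95% interval 12.997 to 400.1). Of 9 endothelial markers 6 were tested and 4 rose, with sums of 10.8, 11.9 and 12.8 CPM of library totals with HCC- EVs and 1.60, 2.07 and 2.05 in the blank. PECAM1 and VWF rose by 5.52 and 2.65 and ENG by 0.82, while KDR gave -0.72 ± 0.68 (adjusted p = 0.389) and CDH5 had 12 counts with HCC- EVs and 2 in the blank. TEK, an endothelial receptor, held 90, 40 and 81 counts with HCC- EVs and 0, 0 and 0 in the blank, at least 53.5-fold higher against a floor of 3 counts over the group. Of 12 hepatocyte markers 4 were tested, FGG fell and none rose, and APOC3, FGA and AFP had 0 counts. Among the untested ones APOA1 had 13, 6 and 21 counts with HCC- EVs, against 0, 2 and 0 in the blank, and CYP3A4 had 13, 0 and 1 with HCC- EVs, against 0, 0 and 2 in the blank. Of 8 erythroid markers 2 were tested and SLC4A1 rose by 2.74, while HBB had 11 counts with HCC- EVs and 0 in the blank. Of 8 platelet markers 4 were tested, NRGN and GP1BA fell, and PPBP and PF4 had 0 counts, while the untested TREML1 had 2, 5 and 4 counts with HCC- EVs and 0, 0 and 0 in the blank. Of 10 fibroblast markers 3 were tested and COL1A1 rose by 0.99, while COL1A2 and LUM had 0 counts. Among the untested ones COL3A1 had 0, 24 and 22 counts with HCC- EVs and 0, 0 and 0 in the blank, THY1 16, 12 and 2 with HCC- EVs and 0, 0 and 4 in the blank, and DCN 2, 2 and 6 with HCC- EVs and 0, 0 and 0 in the blank. A count of 0 over a group allows up to 3. The part of RNA from such cells in these and other rises was not tested. Without blank replicate 2 GBP2 was at 5.98, without blank replicate 3 LYZ was at 8.09 and SLC4A1 at 3.82, and without blank replicate 1 PECAM1 was at 6.22. The call of ENG was lost without HCC- replicate 2 (0.67), blank replicate 1 (0.58) or blank replicate 3 (0.73), that of SLC4A1 without HCC- replicate 3 (2.52), blank replicate 1 (2.26) or blank replicate 2 (2.59), and that of FGG without any 1 of the 6 libraries (-2.46 to -1.89).

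Immunoglobulin constant genes, which plasma cells and not epithelial cells are known to express, were picked out after their values were seen. They were nearly absent in the blank and passed the filter on low counts only through groups where they were higher, so their values are given as a description. IGHG1 held 30, 35 and 86 counts with HCC- EVs, against 1, 9 and 2 in the blank, and IGHG4 41, 23 and 38 with HCC- EVs, against 4, 4 and 7 in the blank. IGHG2 held 21, 16 and 35 counts with HCC- EVs, against 1, 2 and 0 in the blank, and IGHA1 17, 5 and 15 with HCC- EVs, against 0, 2 and 0 in the blank. The counts are few and the genes resemble each other. The source of these reads was not tested. Without blank replicate 2 the changes of IGHG1, IGHG2 and IGHA1 were 4.23, 4.55 and 6.29, in place of 2.98, 3.77 and 3.34, and without blank replicate 3 that of IGHG2 was 3.17. IGHA1 kept its call without HCC- replicate 2 or blank replicate 2, and was uncalled without any 1 of the others, at 2.77 to 3.19.

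The dose of HCC- EVs was tested as well. HCC- EVs at 1.2 mg/mL differed from HCC- EVs at 0.24 mg/mL in 10139 of 19556 genes (51.8%), with 4671 higher (23.9%) and 5468 lower (28%). By library totals 7742 were higher and 3110 lower. This test shares the 1.2 mg/mL libraries with the comparison against the blank. The origin list was lower at 1.2 than at 0.24 mg/mL in 21 of 22 cases, the fork list in 29 of 29 and mitosis in 36 of 37, and osmolyte genes were higher in 17 of 22. SLC5A3 averaged 40.1 ± 8.22 CPM in the blank, 30.3 ± 1.33 at 0.048 mg/mL, 41.5 ± 5.60 at 0.24 mg/mL and 325 ± 65.3 at 1.2 mg/mL (SD, n = 3 each). RRM2, the small subunit of ribonucleotide reductase, averaged 464 ± 29.8 CPM in the blank, 447 ± 30.8 at 0.048 mg/mL, 447 ± 26.8 at 0.24 mg/mL and 107 ± 9.23 at 1.2 mg/mL. EGR1 averaged 95.4 ± 18.005 CPM in the blank, 141 ± 16.2 at 0.048 mg/mL, 113 ± 22.7 at 0.24 mg/mL and 21.2 ± 1.44 at 1.2 mg/mL. In each of these genes the means at both lower doses lay closer to the blank than the mean at 1.2 mg/mL. The number of genes detected at equal depth was 23407, 24000 and 23757 at 0.24 mg/mL.

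The source of the EVs was tested at the same dose. HCC- EVs at 1.2 mg/mL differed from HCC+ EVs at 1.2 mg/mL in 6901 genes (35.3%), with 2490 higher (12.7%) and 4411 lower (22.6%). By library totals 4572 were higher and 2342 lower, so that the balance turned with the scaling. Replication was lower with HCC- EVs, in 19 of 22 genes of the origin list and 29 of 29 of the fork list, and so were cholesterol synthesis and uptake in 23 of 25 and glycolysis in 17 of 23. GINS2 averaged 20.5 ± 1.35 CPM with HCC- EVs and 61.7 ± 3.13 CPM with HCC+ EVs (SD, n = 3 each), a difference of -1.59 ± 0.07 on the log2 scale. AKR1B1 averaged 292 ± 89.4 CPM with HCC- EVs and 88.6 ± 18.8 CPM with HCC+ EVs, a difference of 1.72 ± 0.16. Other genes gave no call between the sources. PCK2 averaged 23.6 ± 1.69 CPM with HCC- EVs and 23.9 ± 1.49 CPM with HCC+ EVs (-0.02 ± 0.09, adjusted p = 0.886), and ABCG1 averaged 6.54 ± 0.411 CPM with HCC- EVs and 6.56 ± 1.60 CPM with HCC+ EVs (-0.0033 ± 0.19, adjusted p = 0.993). A p above 0.05 does not show that the sources act alike. On the first principal component, which held 34.6% of the variance, HCC- libraries at 1.2 mg/mL lay at -78.5 to -87.6 and HCC+ libraries at 1.2 mg/mL at -25.5 to -45.5, while all others, the blank included, lay at 12.3 to 31.6.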

How the data were processed

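Poly(A) RNA of HCT-116 cells in 21 libraries, 7 groups of 3, was sequenced by the authors. The deposited table holds counts, whole numbers of reads per gene for 65065 genes, and the submitters' processing notes name cutadapt 3.4, HISAT2 2.2.1, featureCounts 2.0.1 and the build GRCh38, without saying in the sources used here how strand or reads with several matches were treated. Depth was 31219343 to 64012757 counts per library, and intervals and the floor of 3 counts over a group cover counting error only.

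Genes were filtered with filterByExpr, which kept 19556 (99.96% of counts), scaled with TMM and tested with edgeR 4.0.16 (robust quasi-likelihood fit of 7 group means, limma 3.58.1, R 4.3.3) with Benjamini-Hochberg adjustment over all tested genes; adjusted p-values in the text come from this fit. The biological coefficient of variation was 0.0885, with 14 residual degrees of freedom. The steps were tested on simulated data in which only a small share of genes changed, so that test does not cover the dependence of the calls on scaling. Tables and figures were made with Python 3.11.15, pandas 2.3.3, NumPy 2.4.6 and matplotlib 3.10.9.

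Named genes were taken by rule. These were the called genes with the largest change, no overlap between the groups and a mean level of 1 log2 CPM or more, in each of the 3 tests, the largest differences in CPM, at most 5 called members of each list with the smallest p, all members of short lists, all called markers of other cells and all colon epithelial markers, of which the text gives a selection; others are marked as chosen after their values were seen. The members and lists were chosen with earlier results of these data known. Lists are described by counts and medians beside all genes. Alternatives were RLE size factors, library totals, trends of GC content and length removed, no filter, the 6 libraries compared alone, a replicate block, DESeq2 1.42.0 and leaving out each library. Removing the trends also recentred each library on the genes that set them. Replicates of the same number did not deviate together, so they were not treated as pairs. Promoter windows came from RefSeq. Levels of genes between groups are compared per gene only, and no levels per length were formed. Some genes of the lists are counted but not reported here by name.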

Additional observations from a re-analysis of the deposited data

Results flagged for a closer look

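Differences between doses came first among the results that call for another look. HCC- EVs at 1.2 mg/mL differed from HCC- EVs at 0.24 mg/mL in 10139 genes by edgeR's quasi-likelihood test of the difference itself. Of the genes named by size, SLC6A12 was higher by 5.77 on the log2 scale at 1.2 than at 0.24 mg/mL, ANK1 by 3.62, H2BC5 by 3.54, LURAP1L by 3.05 and CYP4F3 by 3.05. The lowest were RIBC2 at -2.77, MEIOSIN at -2.47, EGR1 at -2.41, NIBAN1 at -2.37 and CDCA7 at -2.37.

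Differences between sources at 1.2 mg/mL formed the other set. HCC- EVs differed from HCC+ EVs in 6901 genes. SLC6A12 was higher with HCC- EVs than with HCC+ EVs by 3.33, MIR23AHG, a host gene of microRNAs, by 1.85, the AP-1 member FOSB by 1.77, DNAH10 by 1.76 and H2BC21 by 1.74. Among the lowest were RIBC2 at -2.75, EXO1 at -1.88, RFC5 at -1.69 and ASF1B, a histone chaperone, at -1.60. Both sets share the HCC- 1.2 mg/mL libraries with the comparison against the blank.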

How the results depend on the processing

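Scaling moved the balance of calls most. Against the blank, 8128 genes were higher and 3097 lower with HCC- EVs at 1.2 mg/mL by library totals, and 7395 were higher without trends of GC content and length, in place of 4844 and 5574. Against 0.24 mg/mL, 7742 genes were higher and 3110 lower by library totals, and 7326 were higher without those trends. Against HCC+ EVs, 4572 genes were higher and 2342 lower by library totals, and 4805 were higher without those trends. Of the 10418 genes called against the blank, 7941 were called in the same direction and 27 in the opposite one by library totals, and 8535 and 183 without those trends. Under RLE size factors, DESeq2, no filter, the 6 libraries alone and each left-out library, 0 were called in the opposite direction.

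Leaving out each library in turn gave 9433 to 10203 calls against the blank (4298 to 4700 higher, 5108 to 5503 lower), 9030 to 9621 against 0.24 mg/mL (3882 to 4383 higher, 4983 to 5313 lower) and 5322 to 6464 against HCC+ EVs (1739 to 2284 higher, 3583 to 4211 lower). With the replicate number as a block the count against the blank was 10448 (4853 higher, 5595 lower); same-numbered libraries deviated with correlations of 0.0735, 0.0521 and -0.0443, so the numbers did not pair them. The block changed no count by more than 1.5 times.

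Of 241 named genes 210 kept direction and call under every alternative. Reversed under library totals were CDH1 at 0.18, HSPA1B at 0.10, KRT8 at 0.0137, MYC at 0.10 and OXSR1 at 0.0182, and without GC content and length trends EPCAM at 0.0636 and FASN at -0.18. These causes were not tested. Of 71 list medians relative to that of all genes, 21 moved by less than 1 SD of the HCC- libraries under every alternative and 50 by more under at least 1, 37 of these without GC content and length trends and 26 without blank replicate 2. The sign of 9 changed under at least 1 alternative, all of them lists within 0.11 of the median of all genes. Without those trends Wnt targets were at -0.03, HLA class I presentation at -0.04, ERK feedback regulators at -0.03 and glucocorticoid and circadian output at 0.09, in place of 0.07, 0.05, 0.04 and -0.0016, and the others turned with single libraries or the 6 libraries alone. Genes with few counts are limited by depth, and their fold changes depend on single libraries.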

Other observations

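Chromosomes differed in the balance of calls. On chromosome 19, 477 of 1331 tested genes rose and 254 fell, with a median of 0.26, and on chromosome 17, 396 of 1289 rose and 296 fell, with a median of 0.19. On chromosome 4, 127 of 689 rose and 246 fell, and on chromosome 13, 51 of 322 rose and 110 fell, both with a median of -0.10. The change also moved with GC content, with medians of -0.23 in the fifth of genes with the lowest and 0.28 in that with the highest. The part of GC content in the differences between chromosomes was not tested.

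The medians of iron and snoRNA host genes turned from negative to positive by library totals, where the median of all genes was 0.33 in place of 0.05. Both lists stayed below the median of all genes. Of 15 genes of iron handling 7 fell and 3 rose, with a median of -0.21 that was 0.07 by library totals. Of 16 snoRNA host genes 8 fell and 3 rose with HCC- EVs at 1.2 mg/mL against the blank, with a median of -0.21 that was 0.07 by library totals, yet 8 of the 16 were higher with HCC- than with HCC+ EVs and 0 were lower.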
